A study of Mus musculus with 8 samples.

Results

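The dependence of the Nfil3 knockout effect on developmental stage was measured by setting the effect in prepro NK cells (preproNK) against that in all-lymphoid progenitors (ALP). For each gene the difference between knockout (KO) and wild type (WT) in ALP was subtracted from the difference in preproNK, within each of 2 replicate numbers, and the results were averaged. This quantity is called the interaction here. All 8 arrays of the series entered it, and 11583 of 17097 genes with a probe set of their own were given a value, the others being near background on most arrays. The 4 groups were WT ALP, Nfil3 KO ALP, WT preproNK and Nfil3 KO preproNK, with 2 arrays each. All cells were sorted from lineage-depleted bone marrow of mice that carry an Id2-GFP reporter, a green fluorescent protein that reports Id2 activity, and were lysed without culture. The labels give neither the knockout allele, the age and sex of the mice, nor how many mice gave a sample. Replicate numbers 1 and 2 stand for 2 processing dates, and no label says whether replicates came from separate mice. The p-values below thus reflect the spread among these arrays, which can be technical in part.

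Nfil3 is a basic leucine zipper transcription factor that NK cells and other innate lymphoid cells need for their development. It binds the same short DNA sequence as the PAR bZIP factors of the circadian clock and often represses its targets. The ALP is an early marrow progenitor that can give rise to B, T and NK cells, whereas the preproNK cell is a later Id2-expressing progenitor. In bulk RNA from sorted cells, a higher share of cells that express a gene and more RNA per cell cannot be told apart.

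Both WT groups held 1 array with a narrow range of values, WT preproNK replicate 2 (SD over all probe sets 1.39 log2) and WT ALP replicate 2 (1.55), against 1.66 to 1.88 on the others. On WT preproNK replicate 2 only 310 tested genes reached a log2 value of 8, against 682 to 1498 elsewhere. Xist, expressed from the inactive X chromosome, read 3.10 to 3.56 on the replicate 1 arrays and 7.94 to 9.30 on the replicate 2 arrays other than WT preproNK replicate 2, which read 4.20. Each replicate 2 difference between genotypes therefore rests on a narrow-range array, and results are given per replicate. The part of these array differences in the results was not tested.

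Nfil3 RNA itself was lower in KO in both populations, and the gap was wider in ALP, mainly in replicate 1. Its log2 value was 6.89 and 5.50 in WT ALP (replicates 1 and 2, the order used throughout), 3.41 and 4.15 in KO ALP, 4.75 and 4.74 in WT preproNK, and 3.84 and 3.57 in KO preproNK. The 4 KO arrays lay below the 4 WT arrays, with a mean difference of -1.72 (two-sided exact permutation p = 0.0286, the smallest this design allows). The interaction was 1.37 (SE 0.73), positive in both replicates, and was not called by limma (unadjusted p = 0.0985, adjusted p = 1). The labels do not say which exons the knockout removes, so the probe set may or may not read them, and these values are an incomplete check of the genotypes.

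A gene was said to respond in a population when KO and WT differed by at least 1 log2 (2-fold) with the same sign in both replicates, and to be flat there when the size was under 0.5 log2 in both. Responses by this rule were far more frequent in preproNK than in ALP. In preproNK 234 genes were higher in KO (2.02% of the genes tested) and 45 were lower (0.389%), whereas in ALP 5 were higher (0.0432%) and 4 were lower (0.0345%). After the deposited values were quantile normalized again, the preproNK counts were 167 higher and 71 lower. Of the genes higher in KO preproNK 147 were flat in ALP, and of the lower ones 18 were. Over all tested genes 63.0% were flat in ALP, so being flat there was not particular to these genes. No gene responded in ALP and was flat in preproNK, 1 gene responded in both populations the same way, and none responded in opposite directions. With 0.5 log2 as the size of a response, 502 and 147 genes were higher and lower in preproNK and flat in ALP, 41 and 13 were higher and lower in ALP and flat in preproNK, 61 were higher and 16 lower in both, and 2 moved in opposite directions. These classes were defined on the values themselves and describe the arrays.

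**Figure D1:**
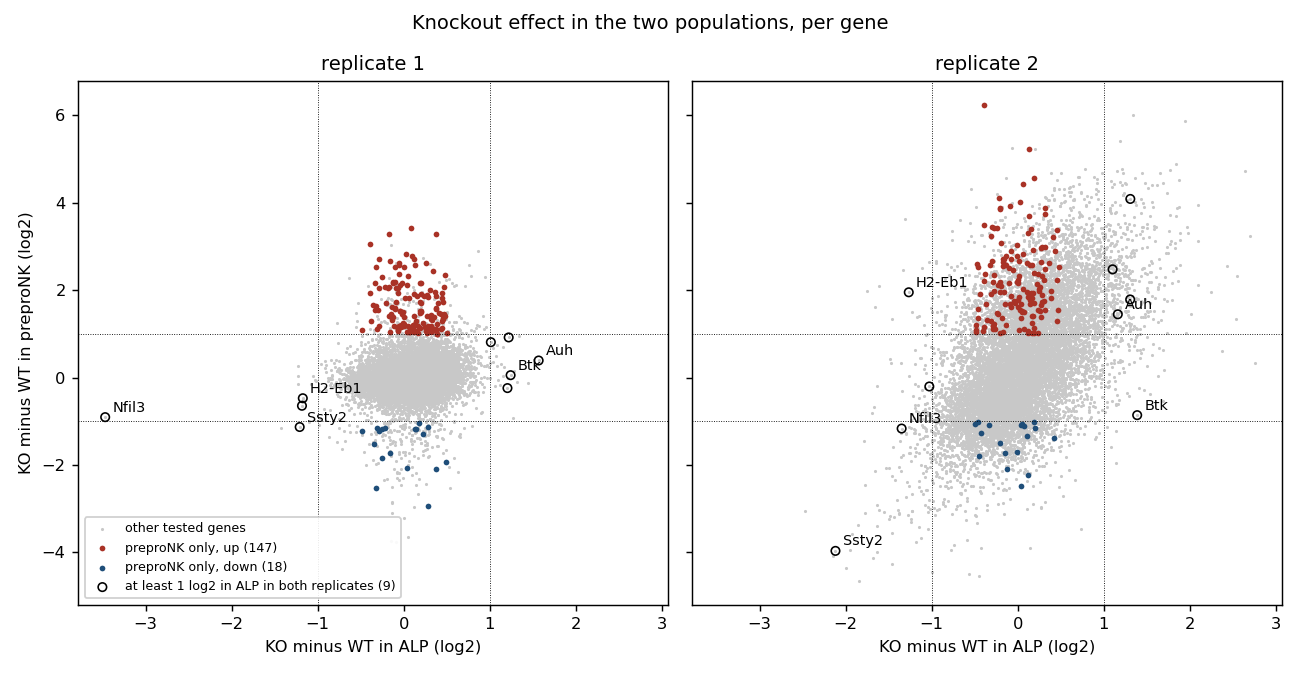
KO minus WT in log2 per tested gene, ALP on the horizontal and preproNK on the vertical axis, with 1 panel per replicate; dotted lines mark 1 log2. The 147 genes higher in KO preproNK and flat in ALP (red) and the 18 lower ones (blue) stand at the edges of the cloud in replicate 1. In replicate 2 the cloud is wider along both axes and holds them, since 3723 genes were at least 1 log2 higher and 1571 lower in KO preproNK there.

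As a test over all genes the interaction gave no call. By limma, 0 of 11583 genes had an adjusted p under 0.05 (0.0%) in fits with and without a replicate block. At an unadjusted p under 0.05 there were 183 genes, and the interaction was positive in 168. The median SE of an interaction was 0.67 log2. Without both narrow-range arrays, a fit chosen after seeing the data in which the spread comes from the KO groups and each lone WT array is assumed to vary like them, 1 interaction was called. It was that of Rnf128, an E3 ubiquitin ligase also known as GRAIL, at -4.00 (SE 0.65, limma adjusted p = 0.0236). The call rests on WT preproNK replicate 1, where Rnf128 read 7.94 against 3.63 on replicate 2. Its KO minus WT difference in preproNK was -3.77 and -0.22, and without WT preproNK replicate 1 the interaction was 0.38.

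The widest margins among genes that responded in preproNK and were flat in ALP were those of Cd55, Sox13, Ccr6, S100a6, Sit1, Klrc1, S1pr1, Ehd3, Actn2, Sidt1, Dtx1 and Ptprv. Cd55, a complement inhibitor on the cell surface, read 2.40 and 2.51 in WT ALP, 2.48 and 2.23 in KO ALP, 2.99 and 2.40 in WT preproNK, and 6.41 and 5.83 in KO preproNK. Only the KO preproNK arrays exceeded the array median over all probe sets, which was 4.02 and 4.27 in WT preproNK. With that median as a floor Cd55 was 3.95-fold higher in KO preproNK on the mean of the replicates, and by less in replicate 2. The KO minus WT difference was 3.42 and 3.43 in the replicates, and the interaction was 3.52 (SE 0.55, limma adjusted p = 1). Its other 2 probe sets, both near background, had interactions of 0.44 and 0.62. Sox13, an SRY-box factor known from gamma delta T cells, read 3.56 and 3.80 in WT ALP, 3.94 and 3.93 in KO ALP, 4.72 and 3.80 in WT preproNK, and 7.999 and 7.49 in KO preproNK. WT preproNK replicate 2 thus stood within the range of ALP and replicate 1 just above it, and both KO preproNK arrays were more than 3 log2 above every ALP array.

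Receptors that guide cells through tissues formed part of this class. Ccr6, the receptor of the chemokine CCL20, read 3.59 and 3.50 in WT ALP, 3.27 and 3.57 in KO ALP, 7.12 and 4.85 in WT preproNK, and 9.66 and 9.29 in KO preproNK. S1pr1, a sphingosine phosphate receptor for exit from tissues, read 3.73 and 3.42, 3.63 and 3.69, 5.83 and 5.34, and 8.35 and 8.33 in the same order of groups. Both genes were higher in WT preproNK than in ALP and higher again in KO preproNK, with no overlap of groups within preproNK. The rule of the class favours such a gap, which 145 of its 147 genes had, against 2631 of all 11583 tested genes. Their interactions were 3.61 (SE 0.95) and 2.67 (SE 0.51). Ccr2, a receptor for monocyte chemoattractants, belonged to the class as well, with a KO minus WT difference in preproNK of 1.24 and 4.58, and its 3 other probe sets were higher in KO by 0.76 and 3.35, 1.42 and 3.75, and 0.47 and 0.58. Cxcr3, a receptor for chemokines induced by interferon gamma, was higher in KO preproNK by 2.26 and 3.60 but moved by 0.52 and -0.21 in ALP, just outside the limit for flat.

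Of the 147 genes, 2 of the 116 with a promoter in RefSeq held the core sequence bound by Nfil3 and the PAR bZIP factors between 250 bases before and 50 bases after the start, Ccr6 and Stk38. That is a share of 1.72%, against 0.813% of all tested genes with a promoter (76 of 9346), and it rests on 2 genes. Among the other genes higher in KO preproNK, which were neither flat nor responding in ALP, 0 of 70 promoters held a match. The letters searched on both strands were TTATGTAA, whose reverse complement is TTACATAA, and TTACGTAA. The promoters (GRCm38.p6, RefSeq) are shown because Ccr6 was among the largest differences, with the match in capitals. The match in Ccr6 (chr17:8235793-8236092, plus strand) begins 36 bases before the start, and that in Stk38 (chr17:29007946-29008245, minus strand), a serine/threonine kinase, 245 bases before it. A match of letters is no evidence of binding.
Ccr6: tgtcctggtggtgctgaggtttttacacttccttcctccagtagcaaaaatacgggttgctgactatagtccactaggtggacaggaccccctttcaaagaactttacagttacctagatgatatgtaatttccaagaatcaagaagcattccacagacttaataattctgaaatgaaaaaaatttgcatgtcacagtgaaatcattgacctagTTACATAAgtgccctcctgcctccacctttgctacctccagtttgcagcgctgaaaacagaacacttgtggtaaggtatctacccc
Stk38: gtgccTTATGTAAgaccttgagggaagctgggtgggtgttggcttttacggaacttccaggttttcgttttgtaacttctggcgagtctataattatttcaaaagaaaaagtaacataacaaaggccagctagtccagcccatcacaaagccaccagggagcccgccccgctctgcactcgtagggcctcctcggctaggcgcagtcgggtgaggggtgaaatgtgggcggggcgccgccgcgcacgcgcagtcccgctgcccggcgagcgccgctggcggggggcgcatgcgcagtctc
Stk38 itself read 6.40 and 5.36 in WT ALP, 6.73 and 5.71 in KO ALP, 6.53 and 4.60 in WT preproNK, and 7.85 and 7.22 in KO preproNK, and its other probe set above background was higher there by 0.36 and 1.25. None of the 17 promoters of genes that were lower in KO preproNK and flat in ALP held a match.

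Genes of the T cell receptor complex and its signalling were higher in KO preproNK, with list medians near 0 in ALP. Of 17 tested genes of this list 11 were at least 1 log2 higher in KO preproNK in both replicates, against 2.02% of all genes. By as much 0 were lower. Of the 11, 7 were also flat in ALP, as were 63.0% of all tested genes. The list's median difference was 1.56 and 2.20 in preproNK and -0.09 and -0.16 in ALP, beside 0.01 and 0.29 and 0.11 and 0.03 over all tested genes. After quantile normalization 9 of the 17 were past 1 log2 in both replicates, all 9 among the 11. Sit1, an adaptor that dampens receptor signals, read 2.88 and 3.24 in WT ALP, 2.90 and 3.07 in KO ALP, 4.81 and 4.58 in WT preproNK, and 7.65 and 7.23 in KO preproNK, for an interaction of 2.82 (SE 0.51). Cd3g, a chain of the CD3 complex, read 3.49 and 3.42, 3.31 and 3.55, 8.27 and 4.69, and 10.34 and 9.91 in that order. In Cd3g the WT preproNK arrays differed from each other by more than the KO and WT arrays of replicate 1 did, and the KO minus WT difference was 2.07 in replicate 1 and 5.23 in replicate 2. Cd3d and Cd2, a costimulatory receptor, were higher in KO preproNK by 2.08 and 2.50 and by 2.29 and 4.20, with values of -0.15 and -1.12 and of -0.64 and -0.25 in ALP that kept them out of the flat class. Cd5 and Cd247, the latter encoding the zeta chain, and the kinase genes Zap70, Txk and Blk also belonged to the class, with interactions from 1.64 to 3.10. The 3 other probe sets of Cd247 were higher in KO preproNK by 2.25 and 3.16, 0.69 and 2.91, and 0.05 and 0.35.

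NK receptor genes followed the same pattern in part. Of 10 tested members 4 were at least 1 log2 higher in KO preproNK in both replicates, against 2.02% of all genes. The median difference was 0.35 and 1.34, and 0 members were lower by as much. With no filter on dim probe sets the count was 4 of 15, with medians of 0.12 and 0.74. Among genes above the array median on at least 4 arrays it was 2 of 7. Klrc1, which encodes NKG2A, read 2.64 and 2.85 in WT ALP, 2.58 and 2.64 in KO ALP, 4.10 and 3.13 in WT preproNK, and 6.73 and 7.02 in KO preproNK. Klrk1, which encodes the activating receptor NKG2D, read 3.28 and 3.65, 3.15 and 3.51, 5.62 and 4.48, and 7.79 and 7.26. Klrd1, the CD94 partner of the NKG2 chains, read 3.48 and 2.96, 3.85 and 2.96, 3.36 and 2.82, and 4.92 and 4.99. For all 3 the KO preproNK arrays lay above the other 6, and Klrd1 was below the array medians everywhere else. The KO preproNK arrays lay above the other 6 for 131 of the 147 genes of the class and 1211 of all 11583 tested genes. Klrb1f was higher by 1.44 and 2.85 in KO preproNK and by 0.30 and 0.72 in KO ALP. Probes of the Klrc and Klrb1 families can share targets.

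Effector genes of cytotoxic lymphocytes were higher in KO preproNK in part of the list. Of 15 tested members of this list 7 were at least 1 log2 higher in both replicates, against 2.02% of all genes, and 0 were lower by as much. The median was 1.33 and 1.48, beside 0.01 and 0.29 over all tested genes. With no filter on dim probe sets the count was 7 of 19, with medians of 0.97 and 0.90. Among genes above the array median on at least 4 arrays it was 5 of 12. Gzmb, which encodes granzyme B, read 3.59 and 4.02 in WT ALP, 3.45 and 3.98 in KO ALP, 4.23 and 4.10 in WT preproNK, and 5.70 and 5.86 in KO preproNK. Ccl5, a chemokine of T and NK cells, read 3.73 and 3.93, 3.71 and 3.93, 6.56 and 5.60, and 8.02 and 8.38. Ccl5 thus differed between genotypes by 1.46 and 2.79 in preproNK and by -0.02 and -0.01 in ALP, for an interaction of 2.13 (SE 0.60). Tnf was higher by 1.74 and 1.05, and Ifng, which encodes interferon gamma, by 1.33 and 1.48. Cst7, an inhibitor of granule proteases, was higher in KO in both populations, by 2.58 and 2.82 in preproNK and by 0.76 and 0.96 in ALP.

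Among NK transcription factors the class held Tbx21 and Klf2, 2 of 10 tested, against 147 of all 11583 tested genes. Tbx21, which encodes T-bet, read 2.56 and 2.86 in WT ALP, 2.54 and 3.01 in KO ALP, 5.67 and 5.42 in WT preproNK, and 7.84 and 8.82 in KO preproNK. The interaction was 2.71 (SE 0.62), with WT preproNK above ALP and KO preproNK above both. Klf2, a factor that controls S1pr1, differed by 1.94 and 2.23 in preproNK and by -0.06 and 0.45 in ALP. Il2rb, the receptor chain for interleukins 2 and 15, differed by 2.14 and 3.14 in preproNK, and its ALP values of -0.09 and -0.77 kept it out of the flat class. Zbtb16, which encodes PLZF, was higher in KO preproNK by 0.94 and 0.80, short of the 1 log2 limit, and moved by 0.08 and 0.02 in ALP. Its other probe set above background was higher by 0.90 and 3.73 in preproNK, with an interaction of 2.56.

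For Id2, Gata3, Ets1 and Eomes the probe set with the highest mean changed sign between replicates in preproNK. Id2, which inhibits E proteins, was lower in KO ALP by 0.67 and 1.00 log2, with 6.83 and 6.94 in WT ALP against 6.16 and 5.94 in KO ALP. Its groups did not overlap in ALP, whereas in preproNK the difference was -0.20 and 1.49. Its other 2 probe sets above background moved by 0.08 and -0.34 and by -0.11 and -0.13 in ALP, without that drop, and were higher in KO preproNK by 0.18 and 1.84 and by 0.089 and 1.57. Gata3, needed for type 2 innate lymphoid cells, differed in preproNK by -1.52 and 1.20, Ets1 by -0.18 and 2.78 and Eomes by 0.34 and -1.27. The other probe set of Eomes above background was higher in KO preproNK in both replicates, by 0.78 and 0.24. Flt3, a cytokine receptor of early progenitors, stood at 8.10 to 9.14 in ALP and 3.79 to 4.47 in preproNK, with an interaction of -0.30 (SE 0.69). The interactions of Rag1 and Rag2, which encode the antigen receptor recombinase, were -0.92 (SE 0.66) and -1.56 (SE 0.61), and Rag2 was higher in KO ALP by 0.40 and 0.59 and lower in KO preproNK by 0.60 and 1.54.

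The remaining genes with the widest margins have varied roles. S100a6, a calcium-binding protein, read 4.18 and 3.33 in WT ALP, 4.02 and 3.35 in KO ALP, 6.22 and 4.23 in WT preproNK, and 8.89 and 8.25 in KO preproNK. Dtx1, a ubiquitin ligase of the Notch pathway, read 4.15 and 4.74, 4.41 and 4.65, 5.73 and 4.37, and 8.36 and 8.31. Ehd3, an endocytic recycling protein, was higher in KO preproNK by 3.05 and 2.47, and its other probe set by 2.93 and 3.06. Both probe sets of Ehd3 thus gave differences near 3 log2. Actn2, an actinin, differed by 2.71 and 2.89, Sidt1, a transmembrane protein of the RNA transporter family, by 2.57 and 3.42, and Ptprv, a tyrosine phosphatase, by 2.17 and 2.12. In the fit that pairs arrays by replicate number (a block), limma called 10 genes in preproNK, all higher in KO. They were Cd55, Sox13, Sit1, Ehd3, Cst7, Actn2, Klrc1, S1pr1, Cd247 and S100a6, each at an adjusted p of 0.0457, and 9 of them were flat in ALP. Without the block the count was 0, with 625 at an unadjusted p under 0.05.

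**Figure D2:**
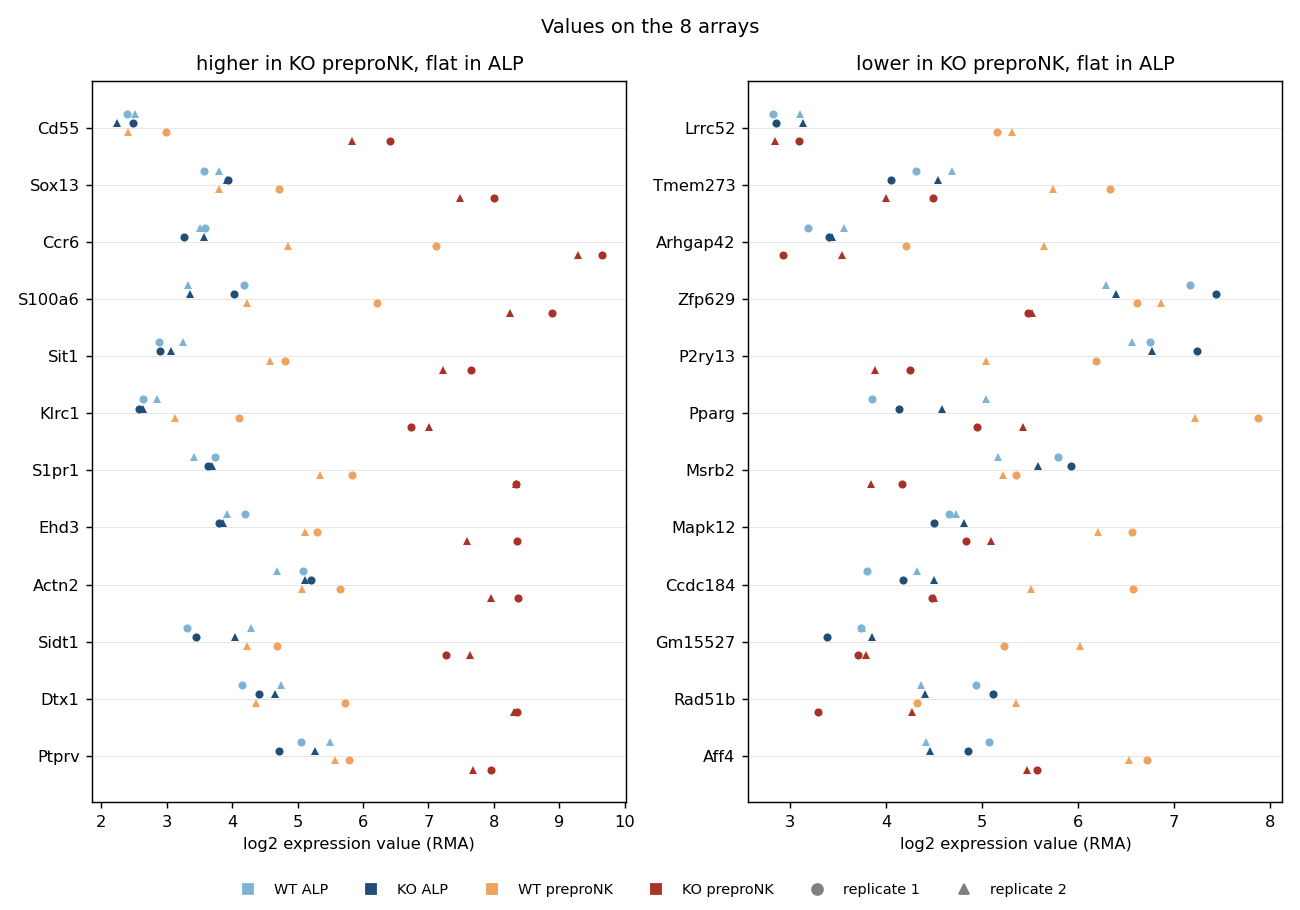
Log2 expression values on the 8 arrays for the 12 genes with the largest margins among those higher (left) and lower (right) in KO preproNK and flat in ALP; colours are the groups, circles replicate 1 and triangles replicate 2. On the left both KO preproNK points lie to the right of the other 6 for each gene, and on the right both WT preproNK points lie to the right of both KO preproNK points.

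Across the 147 genes the typical level was similar in WT ALP, KO ALP and, on the narrow-range array, WT preproNK. Their median values were 4.44 and 4.51 in WT ALP, 4.60 and 4.51 in KO ALP, 5.62 and 4.72 in WT preproNK, and 7.30 and 7.02 in KO preproNK. Of the 147, 47 were below the array median on all 4 ALP arrays and 76 above it on all 4, so most were not restricted to preproNK. Among all 11583 tested genes 253 were below it on all 4 ALP arrays and 8889 above it on all 4. In 94 of the 147 WT preproNK exceeded both ALP means, as in 4412 of the 11583. Above the array median on the KO preproNK arrays only were 22 of the 147, against 54 of the 11583. These 22 were tested only because of the arrays where the class rule requires them to be higher. The median difference in preproNK was 1.82 log2, a 3.54-fold difference, and the largest was 3.99. At the edge of the class, Prkce (1.00 and 1.67) and Gusb (1.00 and 2.54) were just inside, and Dgkz (1.09 and 0.996) and Il18rap (0.995 and 2.91) just outside.

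Other probe sets of the same genes, which the choice had not used but which read the same RNA, mostly had the same sign. Of 71 such probe sets above background in 47 genes, 60 were higher in KO preproNK in both replicates and 31 by at least 1 log2 in both. Over all tested genes 2595 of 6381 such probe sets were higher in both and 121 were at least 1 log2 higher in both. Among 8276 probe sets above background that the annotation does not name, 78 (0.942%) were higher in KO preproNK and flat in ALP and 13 were lower and flat.

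Fewer genes were lower in KO preproNK and flat in ALP, and their differences were smaller. Lrrc52, an auxiliary subunit of potassium channels, read 2.82 and 3.10 in WT ALP, 2.86 and 3.13 in KO ALP, 5.16 and 5.32 in WT preproNK, and 3.09 and 2.84 in KO preproNK. It was above the array median in WT preproNK alone, so KO preproNK stood at the level of ALP, and the interaction was -2.31 (SE 0.49). Pparg, a nuclear receptor active in type 2 innate lymphoid cells, read 3.86 and 5.04, 4.14 and 4.59, 7.88 and 7.22, and 4.95 and 5.43, for an interaction of -2.27 (SE 0.71). P2ry13, a nucleotide receptor, read 6.75 and 6.57, 7.24 and 6.77, 6.19 and 5.04, and 4.25 and 3.89, and unlike Lrrc52 it was highest in ALP. The other genes with the largest margins were Tmem273, Arhgap42, Zfp629, Msrb2, Mapk12, Ccdc184, Gm15527, Rad51b and Aff4, with interactions between -1.02 and -1.83. Mycn, a growth regulator of progenitors, was lower in KO in all 4 pairs, by 0.49 and 0.46 in ALP and by 1.23 and 1.02 in preproNK, where its other probe set above background was lower by 1.60 and 0.049. In 14 of the 18 genes WT preproNK exceeded both ALP means, as in 4412 of all 11583 tested genes. The other 4 probe sets above background of these genes gave 3 that were lower in both replicates and 0 that were lower by 1 log2 in both.

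Many lower genes were highest on the narrow-range array of WT preproNK. Of the 26 genes lower in KO preproNK and neither flat nor responding in ALP, 20 had their highest value on WT preproNK replicate 2, against 6 of the 18 that were flat in ALP and 23.6% of all tested genes. The 26 include multicopy genes known from the testis or the vomeronasal organ. Astx6 read 3.76 and 6.89 in WT ALP, 3.44 and 5.05 in KO ALP, 7.09 and 9.03 in WT preproNK, and 5.12 and 4.37 in KO preproNK. Speer3, Speer4b, Orly and Vmn1r148 likewise read higher on WT ALP replicate 2 than on replicate 1, from 5.95 against 3.21 for Speer4b to 8.40 against 4.63 for Vmn1r148. Probes of these families can share targets, and the part of the narrow-range arrays in their values was not tested.

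In ALP 9 genes responded, among them Nfil3 and Auh. Auh, a mitochondrial enzyme of leucine breakdown, read 6.34 and 6.19 in WT ALP, 7.91 and 7.35 in KO ALP, 6.68 and 5.64 in WT preproNK, and 7.07 and 7.09 in KO preproNK. KO exceeded WT by 1.57 and 1.16 in ALP, and by 0.39 and 1.45 in preproNK. Of its 4 other probe sets, all above background, 3 were higher in KO ALP by at least 1 log2 in both replicates, by 1.81 and 1.20, 2.00 and 2.30, and 2.29 and 2.09. The same 3 differed by -0.06 to 0.29 in preproNK replicate 1 and by 0.87 to 2.94 in replicate 2, and the interactions of all 5 probe sets were negative, between -0.45 and -1.49. In RefSeq's order of tested genes on chromosome 13 Auh lies next to Nfil3. Of the 20 tested genes nearest to Nfil3 in that order, Auh was the only 1 in a class of response, as were 2.48% of all tested genes.

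Btk, a kinase of B cell receptor signalling, also responded upward in ALP. It read 6.27 and 4.73 in WT ALP, 7.51 and 6.12 in KO ALP, 3.77 and 4.98 in WT preproNK, and 3.83 and 4.12 in KO preproNK, for an interaction of -1.72 (SE 0.98). In preproNK it was below the array median on 2 of 4 arrays. Tex2, a lipid transfer protein, Dnaja1, a heat shock cochaperone, and Ms4a6c were the other genes higher in KO ALP, by 1.20 and 1.31, 1.01 and 1.10, and 1.22 and 1.31. The other probe set of Ms4a6c above background was not higher in KO ALP, differing by -0.0015 and -1.06, and that of Dnaja1 by 0.46 and 0.025. The noncoding gene 2610035D17Rik was lower by 1.18 and 1.03. None of these was called in ALP by limma, where 0 genes passed and 5 had an unadjusted p under 0.05.

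Of the 13 tested genes of the MHC class II and dendritic cell list 1, H2-Eb1, responded in ALP, downward, and 0 responded upward. H2-Eb1, the beta chain of I-E, read 7.62 and 7.04 in WT ALP, 6.45 and 5.77 in KO ALP, 6.11 and 6.48 in WT preproNK, and 5.63 and 8.44 in KO preproNK. In ALP H2-Eb1 differed by -1.17 and -1.27. Of other genes of the list, chosen after their values were seen, Cd74, the invariant chain, by -0.97 and -1.33, H2-Aa by -1.17 and -0.62, and H2-Ab1 by -0.87 and -0.75, whereas H2-DMa and H2-DMb1, which encode peptide-loading chains, differed by 0.33 and 0.82 and by -0.068 and 0.44. Other probe sets above background gave -1.41 and -0.36 for H2-Aa, and -1.20 and -0.27 and -0.81 and 0.41 for H2-Ab1. Lower in both replicates of KO ALP were 25.3% of all tested genes, and in 7.4% both KO ALP arrays lay below both WT ALP arrays, as for H2-Eb1, Cd74 and H2-Aa. In the order (H2-Eb1, Cd74, H2-Aa, H2-Ab1) the preproNK differences were -0.47 and 1.95, -0.93 and 2.46, -0.52 and 1.45, and -1.36 and 2.47. Their interactions lay between -0.49 and 0.70 in replicate 1 and between 2.07 and 3.79 in replicate 2. Over the 13 genes the median difference in ALP was -0.07 and -0.10, against -0.47 and 1.14 in preproNK, so the list's ALP medians were near 0. The shorter dendritic cell marker list, 4 of whose 8 tested genes are these 4, had ALP medians of -0.38 and -0.36.

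At 0.5 log2, genes that moved in ALP and were flat in preproNK had small differences. The widest margins upward were those of Ngrn (0.86 and 0.57 in ALP), a mitochondrial ribosome assembly factor, Pibf1 (0.93 and 0.60), a centrosomal protein, 2310022B05Rik (0.93 and 1.51), Litaf (0.74 and 0.99), an endosomal protein, Cmss1 (0.54 and 0.79) and Pfas (1.17 and 0.74), an enzyme of purine synthesis. Downward they were 2610507I01Rik (-0.52 and -0.74), Nab2 (-0.66 and -0.75), a corepressor of EGR factors, Acot11 (-0.66 and -0.55), Sh3rf3 (-0.65 and -0.76), Relch (-0.61 and -1.004) and Mucl1 (-0.75 and -0.67). None of the 12 interactions exceeded 1.08 in size, and their SEs were 0.49 to 1.09. The genes therefore differed between populations by less than 2 SE each. Other probe sets above background did not all have the same signs in ALP. That of Acot11 moved by 0.15 and 0.33, and those of Relch by 0.045 and -0.046, 0.51 and 0.27, and -1.01 and -0.97. Those of Cmss1 moved by 0.44 and 0.12 and by -0.0089 and 0.12. The signs held for 2610507I01Rik (-0.16 and -0.51), Litaf (0.76 and 0.37) and Pibf1 (0.33 and 0.46).

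A single gene, Ssty2, a multicopy spermatogenesis gene of the Y chromosome, responded in both populations the same way at 1 log2. It read 4.61 and 8.003 in WT ALP, 3.40 and 5.88 in KO ALP, 7.63 and 9.53 in WT preproNK, and 6.49 and 5.56 in KO preproNK. Its values were highest on the narrow-range array and differed between replicates by more than between genotypes in ALP. Kdm5d, also on the Y chromosome, read 6.35 and 5.21 in WT ALP, 6.78 and 4.78 in KO ALP, 6.61 and 4.25 in WT preproNK, and 6.75 and 5.09 in KO preproNK. Kdm5d and Eif2s3y were thus not lower in KO in both replicates of either population, whereas Uty, near background, was slightly lower in each pair. At 0.5 log2 Ssty1 and Speer8-ps1 of the same kind, Tfr2, a transferrin receptor, Ccl27a, a chemokine, and Vmn2r42 were among the 16 genes lower in both, as was Nfil3. Upward the widest margin was that of Scpep1, a serine carboxypeptidase, which read 5.56 and 4.59 in WT ALP, 6.50 and 5.86 in KO ALP, 5.18 and 4.91 in WT preproNK, and 7.48 and 7.24 in KO preproNK. KO exceeded WT by 0.95 and 1.27 in ALP and by 2.30 and 2.33 in preproNK, and the interaction was 1.21 (SE 0.63). Psmb7, a proteasome subunit, Pbrm1, a chromatin remodelling subunit, and Prdx4, a peroxiredoxin, were also higher in both, with interactions between 0.15 and 0.88 that were below their SEs of 1.05 to 2.03.

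Opposite directions in both replicates occurred in 2 genes at 0.5 log2. Stx11, a syntaxin needed for release of cytotoxic granules, read 3.45 and 3.82 in WT ALP, 2.91 and 2.97 in KO ALP, 3.79 and 3.26 in WT preproNK, and 4.45 and 4.70 in KO preproNK. It was above the array medians in KO preproNK alone, and its interaction was 1.75 (SE 0.52, limma unadjusted p = 0.0106, adjusted p = 1). Its other probe set above background moved by 0.02 and 0.19 in preproNK and by -0.09 and -0.49 in ALP, with an interaction of 0.40. Asph, an aspartate hydroxylase, read 4.63 and 4.08 in WT ALP, 5.26 and 4.64 in KO ALP, 5.13 and 5.62 in WT preproNK, and 2.96 and 3.80 in KO preproNK. KO was above WT in ALP by 0.63 and 0.56 and below it in preproNK by 2.17 and 1.82, for an interaction of -2.59 (SE 0.65, unadjusted p = 0.0042, adjusted p = 1). The other probe set of Asph above background was lower in KO preproNK by 0.99 and 0.83 and moved by 0.35 and -0.48 in ALP.

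Across the 20 gene lists, the T cell receptor list had the largest share of preproNK responders, and no list had more than 1 responder in ALP. Over all tested genes 2.02% were higher and 0.389% lower in KO preproNK. Lists this short with 0 or 1 responder cannot be told apart from those shares. T and innate lymphoid transcription factors had 1 of 11 (Sox13), interleukin receptors 2 of 14 (Il2rb and Il18r1), trafficking receptors 4 of 13, and GIMAP and S100 proteins 4 of 14, among them Gimap4, a small GTPase of T cells, at 1.40 and 3.61. Early progenitor regulators had 0 of 20 higher and 1 lower, B lineage genes 1 of 12, Cd79b at 1.18 and 1.88, and myeloid genes 1 of 14 higher and 1 lower, Ccr2 and Ltf. Mitosis genes had 1 of 19, the kinase gene Aurkb at 1.08 and 4.43, with list medians of 0.36 and 1.53. DNA replication genes had 0 of 19 and medians of 0.10 and 1.63, and Mcm2, a helicase subunit, differed by 0.22 and 4.67. These proliferation lists therefore differed between genotypes mainly in the replicate with the narrow-range WT array. No member of the erythroid, mast cell and megakaryocyte, immediate early, interferon or BCL2 family lists responded in either population, and of the clock list only Nfil3 did.

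**Figure D3:**
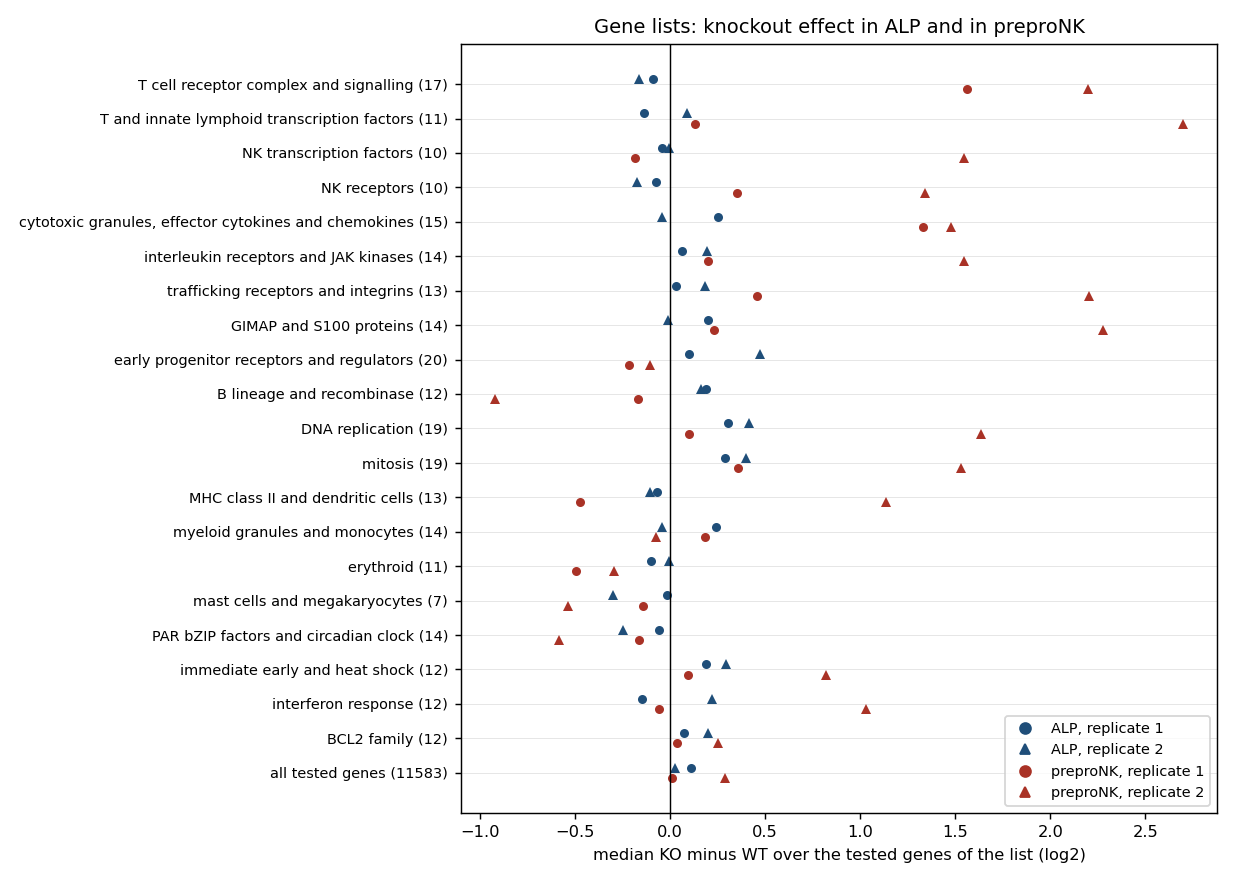
Median KO minus WT in log2 over the tested genes of each list (number in brackets), for ALP (blue) and preproNK (red), replicate 1 as circles and replicate 2 as triangles. The T cell receptor list stands at 1.56 and 2.20 in preproNK and the cytotoxic list at 1.33 and 1.48, and many other lists are shifted in preproNK replicate 2 alone.

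Markers of cell types that a sort could hold moved with these groups. Of 10 tested T cell markers 8 were at least 1 log2 higher in KO preproNK in both replicates, against 2.02% of all genes. The list medians were 7.03 and 5.88 in WT preproNK and 8.95 and 8.54 in KO preproNK. Of 6 markers of interleukin 17 producing gamma delta T cells 4 were higher (Sox13, Ccr6, Blk and the scavenger receptor gene 5830411N06Rik), and of 9 NK cell markers 5 were. Most of these responders were already counted in the gene lists or classes above, so the marker counts give no separate support. Cd3e read 2.93 and 3.48 in WT ALP, 2.93 and 3.27 in KO ALP, 8.48 and 6.59 in WT preproNK, and 9.99 and 10.45 in KO preproNK, so this T cell marker was present in both preproNK groups and near background in ALP. Markers of group 2 innate lymphoid cells split by replicate, with a median difference of -1.43 and 1.20 over 7 genes. Defining ALP markers had list medians of 8.53 and 7.63 in WT ALP, 8.48 and 8.52 in KO ALP and 4.35 to 4.68 in preproNK. In ALP the genotypes were alike in replicate 1, and KO was higher in replicate 2, with a median difference over the 8 genes of 0.09 and 0.43. On these short lists none of the tested markers of dendritic, myeloid, erythroid or mast cells responded in preproNK. The longer myeloid list held 1 higher and 1 lower gene there, Ccr2 and Ltf. The part of other cell types in the preproNK differences was not tested.

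**Figure D4:**
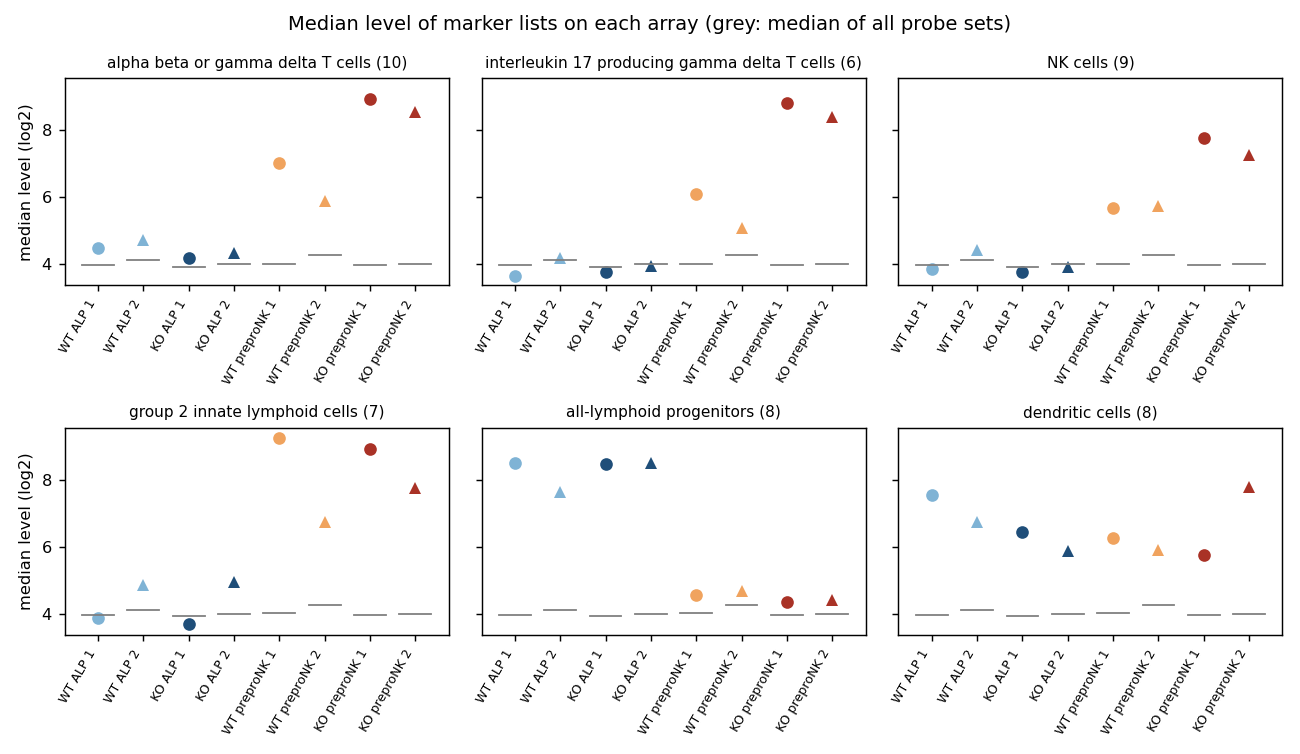
Median log2 level of 6 marker lists on each array (number of genes in brackets), coloured by group, and grey bars for the median of all probe sets on that array. T cell, gamma delta T cell and NK cell markers are highest on both KO preproNK arrays, and group 2 innate lymphoid cell markers are highest on WT preproNK replicate 1.

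Without both narrow-range arrays, a fit chosen after seeing the data, limma called 98 genes in preproNK, 58 higher and 40 lower in KO, and 1 in ALP, Nfil3 (-3.11, SE 0.46, adjusted p = 0.0053). Of the 58 genes 53 were also at least 1 log2 higher in KO preproNK in both replicates, and 37 were flat in ALP as well. Of the 40 lower genes 10 were at least 1 log2 lower in both replicates and 31 were lower in both. These overlaps are not independent, since WT preproNK replicate 1 and both KO preproNK arrays enter the fit and the differences alike. In replicate 2, 32.1% of all tested genes were at least 1 log2 higher in KO preproNK and 13.6% lower, and 63.0% of all were flat in ALP. The lower set included genes known from type 2 innate lymphoid cells, chosen after their values were seen, and no enrichment was tested. The marker list of these cells had 0 of 7 genes that responded in preproNK. Arg1, which encodes arginase, read 3.85 and 4.38 in WT ALP, 3.70 and 4.41 in KO ALP, 8.81 and 6.74 in WT preproNK, and 5.07 and 5.87 in KO preproNK. Nmur1, a receptor for neuromedin U, read 4.88 and 5.79, 4.75 and 5.01, 9.68 and 6.32, and 6.57 and 5.57. WT preproNK replicate 1 thus stood above every other array for both genes. Il9r, Il17rb and Alox5, encoding receptors of interleukins 9 and 25 and a leukotriene enzyme, differed by -2.84, -1.91 and -2.95 in replicate 1 and by -0.10, 0.09 and -0.42 in replicate 2. Among the 40 lower genes 4 were at least 1 log2 higher in KO in replicate 2.

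The agreement between replicates was better for higher than for lower genes. Of 334 genes at least 1 log2 higher in KO preproNK in replicate 1, 234 (70.1%) were so in replicate 2, where 32.1% of all tested genes were. Of 214 lower genes 45 (21.0%) were lower by as much in replicate 2, where 13.6% of all genes were. In ALP, 25 genes were at least 1 log2 higher in replicate 1 and 527 in replicate 2, and 5 were so in both.

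In replicate 2 the knockout effect in preproNK went with the level of the gene, and in replicate 1 it did so by far less. When the tested genes were split into 4 groups of like size by mean level, the median interaction from dimmest to brightest was 0.04, -0.02, -0.10 and -0.14 in replicate 1 and -0.34, -0.14, 0.46 and 1.17 in replicate 2. The genes higher in KO preproNK and flat in ALP were spread over these groups as 35, 43, 42 and 27, and the lower ones as 7, 6, 4 and 1. When each difference was taken relative to genes of like level, a step chosen after seeing the data, 136 genes were higher and flat, 104 of them among the 147, and 37 were lower and flat, 12 of them among the 18.

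**Figure D5:**
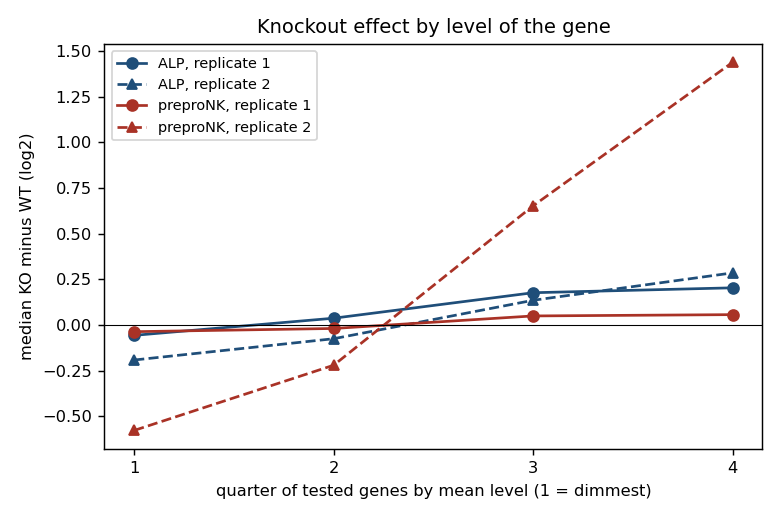
Median KO minus WT in log2 over each of 4 groups of the tested genes by mean level, for ALP (blue) and preproNK (red) in replicate 1 (solid) and replicate 2 (dashed). The preproNK replicate 2 line runs from -0.58 to 1.44, and the other 3 lines stay between -0.19 and 0.29.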

How the data were processed

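Each deposited value is a log2 level of 1 probe set. The submitters' processing notes name RMA and Partek. The sources used here give no settings, versions or genome build. RNA was amplified with a whole transcriptome kit before labelling, per the labels' protocols, which can add spread between arrays. Arrays carry no read depth, so their number limits the precision.

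A gene was represented by its single-symbol probe set with the highest mean, and was tested if that exceeded the median of an array's 45141 probe sets on 2 or more of the 8 arrays. Values below that median were taken as near background. Of 28898 probe sets with 1 symbol, 28689 matched RefSeq. Il7r, Tcf7, Lck and Tox had none and were not analysed here. One model with 4 group means was fitted in R 4.3.3 by lmFit and eBayes of limma 3.58.1 (4 residual degrees of freedom), with two-sided tests and adjustment by Benjamini and Hochberg over 11583 genes.

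By the series design each replicate number is 1 processing date, which pairs the samples. Deviations of same-numbered arrays from their group means correlated at 0.149 to 0.205 where KO preproNK was 1 of the pair and at 0.608 to 0.807 between the other groups. The question, the gene lists, the marker lists and the rule for named genes were chosen with earlier results of these data known. The rule takes Nfil3 and 9 regulators, the genes with the widest margins in each class, per list up to 4 responders or the 2 smallest unadjusted p, and the 5 smallest unadjusted p in each direction. Auh, Btk, Tex2, 2610035D17Rik, Stk38, Rag2, Cd74, H2-Aa, H2-Ab1, Blk, Cd3e, Cd5, Cd247, Zap70, Txk, Ifng, Rnf128, Nmur1, Arg1, Il9r, Il17rb, Alox5, Astx6, Speer3, Speer4b, Orly and Vmn1r148 were chosen after their values were seen. The fit was also run on simulated data without replicate structure, only as a check of the code. Alternatives covered the block, filters, scalings, a floor, probe set means, array weights, response sizes and leaving out arrays.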

Additional observations from a re-analysis of the deposited data

Results flagged for a closer look

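Both genes below were picked out because the knockout effect ran one way in ALP and the other way in preproNK on every array pair, by at least 0.5 log2 in both replicates. Each interaction was tested in the fit over all genes and was not called. Stx11 had an interaction of 1.75 (SE 0.52, limma adjusted p = 1), with values below the array median on all 4 ALP arrays and both WT preproNK arrays, and its other probe set above background did not differ in opposite directions by 0.5 log2. Asph had an interaction of -2.59 (SE 0.65, limma adjusted p = 1), and its KO preproNK values of 2.96 and 3.80 were below the array medians.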

How the results depend on the processing

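The count of interactions called stayed at 0 under the replicate block, both other filters, quantile normalization, a common SD per array, a floor at the array median, probe set means, array weights, a trended robust prior and every single array left out (0 to 0), and was 1 without both narrow-range arrays. Calls in preproNK were 0 except for 10 with the replicate block, which pairs the arrays, 98 without both narrow-range arrays, and 0 to 2532 without a single array, the 2532 without WT preproNK replicate 1, where the lone WT sample is the narrow-range array, assumed to vary like the other groups. Calls in ALP were 0, 0 to 0 without a single array and 1 without both narrow-range arrays. The block changed no other call.

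The count of genes higher in preproNK and flat in ALP, 147, was 502 and 56 with responses of 0.5 and 1.5 log2, 286 from replicate 1 alone, and 168 to 1963 without single arrays (1963 without either preproNK array of replicate 1). Quantile normalization gave 114, of which 99 were among the 147. Requiring values above the array median on at least 4 arrays also gave 114, all among the 147. The count of lower genes, 18, was 147 and 4 with those sizes, 188 from replicate 1 alone, 30 with flat under 1 log2, 31 after quantile normalization, 11 with probe set means, 37 relative to genes of like level, and 20 to 863 without single arrays. Genes in ALP only numbered 54 at 0.5 log2, 2 with flat under 1 log2, 26 from replicate 1 alone and 1 to 51 without single arrays. Genes in both the same way numbered 77, 0 at 1.5 log2, 3 from replicate 1 alone, 0 with the floor and 1 to 28 without single arrays. Opposite genes numbered 2 at 0.5 log2 and 0 to 3 without single arrays. Replicate 1 alone, like level and the narrow-range arrays were chosen after seeing the data. The cause of these shifts was not tested.

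Of 124 named genes 24 had an interaction of the other sign somewhere (50 of 2210 values). Without both narrow-range arrays these were Eomes 0.34, Flt3 0.57, Litaf 0.11, Relch -0.082 and Tfr2 0.61. Eomes was 0.29 with probe set means, Flt3 0.061 after quantile normalization and 0.025 with a common SD, and Pbrm1 -0.081 with the floor. Without single arrays the ranges were -0.97 to 0.076 for Auh, -0.27 to 1.64 for Bak1, -2.18 to 0.15 for Ccl27a, -0.68 to 1.86 for Dnaja1, -1.10 to 0.58 for Eomes, -0.74 to 2.16 for Ets1, -0.82 to 0.22 for Flt3, -1.85 to 1.48 for Gata3, -0.17 to 2.90 for H2-Ab1, -2.98 to 0.063 for Il9r, -3.14 to 0.22 for Nmur1, -1.06 to 1.36 for Pbrm1, -1.94 to 0.18 for Pfas, -0.38 to 1.55 for Prdx4, -0.97 to 2.74 for Psmb7, -3.93 to 0.38 for Rnf128, -2.94 to 0.71 for Speer8-ps1, -2.58 to 0.81 for Ssty2, -1.97 to 1.01 for Tex2, -2.10 to 0.44 for Tfr2, -3.64 to 0.13 for Vmn1r148 and -3.19 to 0.72 for Vmn2r42.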

Other observations

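When any 1 array was left out, the interaction moved by less for some of the genes with the widest margins than for others. It stayed between 3.23 and 3.82 for Cd55, 2.77 and 3.69 for Sox13, 2.61 and 3.03 for Sit1, and -2.45 and -2.17 for Lrrc52. It ranged from 2.48 to 4.75 for Ccr6, from 2.42 to 4.41 for S100a6, from 2.52 to 3.88 for Dtx1, from -2.46 to -1.03 for Arhgap42 and from -1.68 to -0.65 for Rad51b. Among other genes it ranged from 1.88 to 5.46 for Cd3g, from 0.90 to 4.61 for Ccr2 and from -1.85 to 1.48 for Gata3. Clock genes other than Nfil3 did not respond by 1 log2 in both replicates in either population. Among them Hlf, a PAR bZIP factor, was lower in KO preproNK by 1.40 and 0.82 and near flat in ALP at -0.04 and -0.14, and Dbp was lower in all 4 pairs, by 0.48 and 0.53 in ALP and 0.21 and 0.83 in preproNK. Both were named after their values were seen.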
